A study of Homo sapiens with 12 samples.

Results

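The miR-181 family was represented by 3 of the 501 assays in the deposited dCt table, namely hsa-miR-181a, hsa-miR-181a-2# and hsa-miR-181c. They were chosen by name, as every assay of whatever letter or arm with the miR-181 number, and the family itself was picked out on earlier knowledge of its SOX2 knock-down values in these samples, in which hsa-miR-181a-2# moved in opposite directions in the 2 lines. The knock-down values below are therefore a description and carry no test. Values were present for hsa-miR-181a and hsa-miR-181a-2# in all 12 samples and for hsa-miR-181c in the 6 NTera-2 samples alone. The mark # denotes the minor (star, or passenger) strand of a hairpin.

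A miRNA is cut from the stem of a hairpin precursor, and either arm of the stem can be loaded into an Argonaute protein. The loaded strand then pairs with mRNAs chiefly through its seed, bases 2 to 8, and lowers their translation or stability. The 5′ arms of the miR-181 hairpins are the usual major strands, and miR-181a is known for its roles in lymphocyte development, in neurons and in differentiating cells. SOX2 is a transcription factor that acts, with other pluripotency factors, on genes of stem cells and of the early embryo.

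The samples came from 2102Ep and NTera-2, which are established human embryonal carcinoma (hECC) lines. 2102Ep cells are regarded as nullipotent and NTera-2 cells as pluripotent. Each line was transfected for 6 h with a siRNA against SOX2 (siSOX2) or with the non-targeting Silencer Select Negative Control #1 (NC), and RNA was taken after 72 h in growth medium. This gave an NC and a siSOX2 group in either line, each of 3 samples that are labelled as biological replicates. All cells grew in serum-containing medium, 2102Ep at passage 35 to 50 and NTera-2 at passage 40 to 50. 2102Ep received 15 nM siRNA with Lipofectamine 2000 and NTera-2 received 30 nM with Lipofectamine RNAiMAX, so line, dose and reagent cannot be told apart. One siRNA was used against SOX2, and the SOX2 transcript was not analysed here.

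The measured strands are shown first because the 3 assays read different loci and seeds. The mature sequences are those of RefSeq (GRCh38.p14), matched to the 3 assays by miRNA name, with the seed in capitals. The miR-181a and miR-181c assays correspond to 5′ arms and the miR-181a-2# assay to the 3′ arm of the MIR181A2 hairpin.
hsa-miR-181a-5p (assay hsa-miR-181a): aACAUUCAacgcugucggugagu
hsa-miR-181c-5p (assay hsa-miR-181c): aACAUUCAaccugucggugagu
hsa-miR-181a-2-3p (assay hsa-miR-181a-2#): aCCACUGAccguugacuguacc
hsa-miR-181a-3p (minor strand of the MIR181A1 hairpin, shown for comparison): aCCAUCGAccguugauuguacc

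The 5′ arms of miR-181a and miR-181c share the seed ACAUUCA, which 5 of the 2370 mature miRNA names in the RefSeq table carry (miR-181a-5p, miR-181b-5p, miR-181c-5p, miR-181d-5p and miR-4262). The seed of the minor strand, CCACUGA, was found in miR-181a-2-3p alone among these names. It is not the seed of the major strand from the same hairpin. The minor strand of the other miR-181a hairpin, miR-181a-3p, differs from miR-181a-2-3p by 3 substitutions, C5U, U6C and C16U, counted from 1 at the 5′ end of miR-181a-2-3p. The substitutions C5U and U6C lie in the seed.

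The mature miR-181a-5p sequence is the same from both of its genes, so the miR-181a assay cannot separate MIR181A2 (chr9:124692442-124692551, plus strand) from MIR181A1 (chr1:198859044-198859153, minus strand). The miR-181a-2# assay carries the name of the chromosome 9 hairpin. MIR181A2 lies inside the annotated span of the lncRNA gene MIR181A2HG and of the protein-coding gene NR6A1, and MIR181B2 follows it 1158 bases downstream. MIR181A1 lies inside the span of the lncRNA gene MIR181A1HG, and MIR181C (chr19:13874699-13874808, plus strand) lies next to MIR181D. The MIR181A2 hairpin, 110 bases long, is printed with its 5′ arm (miR-181a) and its 3′ arm (miR-181a-2#) in capitals, since an assay matched each arm by name.
MIR181A2 hairpin: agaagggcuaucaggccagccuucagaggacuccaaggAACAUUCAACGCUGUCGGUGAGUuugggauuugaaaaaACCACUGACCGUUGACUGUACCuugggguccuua

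Levels were read as Ct, the PCR cycle at which an assay's signal crosses its threshold, so that a lower Ct stands for more RNA and a cycle for about 1 log2 unit. The miR-181a and miR-181c assays were on card A and the miR-181a-2# assay on card B. A dCt is a raw Ct minus a constant of the sample and card. On card A of either line the constant averaged the Ct of U6, a small nuclear RNA, and miR-16. On card B it was the mean of miR-16-1*, the small nucleolar RNA RNU48 and U6 in NTera-2 cells, but in 5 of the 6 samples of 2102Ep it equalled the Ct of 1 assay near the middle of the card, which differed from sample to sample. For 2102Ep siSOX2 replicate 3 it was not traced to an assay. The dCt of miR-181a-2# was therefore read within a line, and its scale cannot be compared between the lines. In each sample 421 to 451 assays were measured, and dCt of replicates correlated between 0.940 and 0.989 across assays.

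The hECC identity of the samples was checked on miRNAs known from undifferentiated embryonal carcinoma and embryonic stem cells. All 8 markers (miR-302a to miR-302d, miR-367, miR-371-3p, miR-372 and miR-373) were measured in every group, with mean Ct between 16.2 and 20.4 in 2102Ep NC and between 13.9 and 25.2 in NTera-2 NC. They were not all strong in NTera-2 NC, where 52.8% of assays had a lower Ct than miR-371-3p and 29.3% a lower Ct than miR-372. Of the blood markers, miR-144 and miR-451 had no value in any sample, whereas miR-223 had a mean Ct of 22.9 in 2102Ep NC and 25.7 in NTera-2 NC. The blood markers miR-150 and miR-142-3p were also read, at 28.8 and 29.8 in 2102Ep NC and at 29.2 and 28.2 in NTera-2 NC. The muscle miRNA miR-206 was read at a mean Ct of 21.1 to 21.7 in every group and miR-133a at 24.9 to 26.4. The muscle miRNA miR-1 and the liver miRNA miR-122 had no value.

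miR-181a, the major strand, was a weak assay in both lines. The raw Ct was 26.5, 27.3 and 26.9 in the 2102Ep NC samples (replicates 1 to 3) and 22.9, 26.6 and 27.2 in the 2102Ep siSOX2 samples. In NTera-2 cells it was 26.9, 25.8 and 26.6 in NC and 28.3, 27.6 and 27.5 in siSOX2. Among the assays of card A with a value, 18.05% had a higher mean Ct than miR-181a in 2102Ep NC and 30.5% in NTera-2 NC. 1 sample stood apart, 2102Ep siSOX2 replicate 1, which crossed the threshold more than 3 cycles before both other samples of its group. Of the 252 card A assays measured in all 3 samples of that group, 1 showed such a gap in replicate 1, and it was miR-181a.

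miR-181a-2#, the minor strand, had raw Ct of 26.9, 26.0 and 26.0 in NC samples of 2102Ep and of 25.6, 24.5 and 24.2 in 2102Ep siSOX2. In NTera-2 NC it had 24.4, 23.3 and 24.4, and in NTera-2 siSOX2 25.5, 26.2 and 26.2. All siSOX2 samples of 2102Ep thus lay below all NC samples in Ct, and all siSOX2 samples of NTera-2 lay above all of theirs. On card B, 26.8% of the assays had a higher mean Ct in 2102Ep NC and 60% in NTera-2 NC. After siSOX2 these shares were 49.4% and 37.4%.

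miR-181c had raw Ct of 28.9, 27.1 and 30.7 in NTera-2 NC and of 30.3, 31.7 and 33.5 in NTera-2 siSOX2. It was among the weakest assays of card A, of which 7.42% had a higher mean Ct in NC and 1.56% in siSOX2. The groups overlapped, since NC replicate 3 lay above siSOX2 replicate 1. No value of miR-181c was given in 2102Ep cells, which sets no level for it there.

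**Figure D1:**
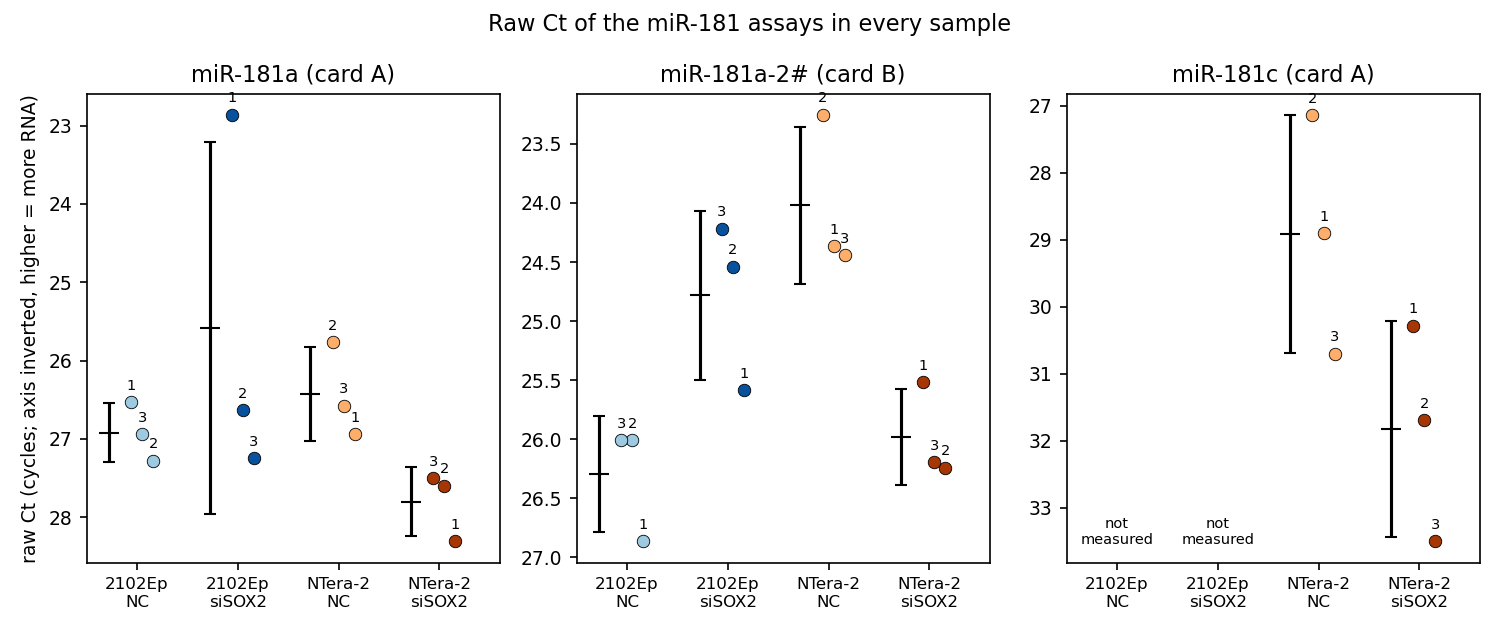
Raw Ct in cycles (y axis inverted, so that more RNA is higher) of the miR-181a, miR-181a-2# and miR-181c assays in the 4 groups. Points are samples with their replicate number, ordered by value within a group, and bars are mean ± SD (n = 3). The miR-181a value of 2102Ep siSOX2 replicate 1, at 22.9, lies apart from the other 11, and the miR-181a-2# points move up in 2102Ep and down in NTera-2.

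The first comparison asked how the strands changed when SOX2 was silenced in 2102Ep cells. On the minus dCt scale, on which a positive change is a rise, miR-181a-2# was 1.68 higher in siSOX2 than in NC, or 3.21-fold, with a standard error of 0.31 from the fit over all 12 samples. The dCt was 2.14, 1.40 and 1.70 in NC and 0.58, -0.19 and -0.20 in siSOX2. The arms did not overlap, and the differences between samples of the same number were 1.56, 1.59 and 1.90. In these bulk samples a change in the share of cells that hold the strand and a change in its amount per cell cannot be told apart. This strand held place 10 from the top among 432 assays tested in the line.

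miR-181a, which can come from this hairpin or from MIR181A1, did not show such a separation in 2102Ep cells. Its dCt was 8.26, 9.21 and 8.60 in NC and 4.62, 8.71 and 8.81 in siSOX2. The fitted difference of 1.31 had a standard error of 0.93 in the fit over all samples, which shares 1 spread among the groups. This error was 1.13 in a fit of the 2102Ep samples alone and 1.41 with unequal variances. The same-number differences were 3.64, 0.50 and -0.22. Without siSOX2 replicate 1 the difference was -0.07 with a standard error of 0.40. The mean rise of the major strand thus came from 1 sample, and the other siSOX2 samples lay within the range of NC.

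In NTera-2 cells every miR-181 assay was lower after SOX2 knock-down. miR-181a-2# had dCt of 7.47, 6.90 and 7.66 in NC and of 9.20, 9.56 and 9.75 in siSOX2. The difference was -2.16 on the log2 scale, or 4.47-fold lower, with a standard error of 0.31. The same-number differences were -1.73, -2.66 and -2.09, and the arms did not overlap. It stood at place 12 from the bottom among 451 assays tested.

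miR-181a had dCt of 11.91, 11.32 and 11.98 in NTera-2 NC and of 13.8, 12.7 and 12.9 in NTera-2 siSOX2, again without overlap. The difference was -1.38, or 2.61-fold lower. Its standard error was 0.93 in the fit over all samples, which shares 1 spread among the groups, and 0.37 in a fit of the 6 NTera-2 samples alone. The same-number differences were -1.88, -1.36 and -0.90.

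miR-181c had dCt of 13.9, 12.7 and 16.1 in NC and of 15.8, 16.8 and 18.9 in siSOX2. The difference was -2.92, with a standard error of 1.11. The spread within each arm (SD 1.73 in NC and 1.59 in siSOX2, n = 3) was wide, and the arms overlapped. Between samples of the same number, however, the differences were all negative, at -1.89, -4.09 and -2.78, and with the replicate number as a block the standard error was 0.50. Whether the numbers mark pairs is not settled. Deviations of same-numbered NTera-2 samples correlated across assays by 0.118, 0.265 and 0.160. Between different numbers they correlated by -0.178 to 0.054, below each of these values.

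**Figure D2:**
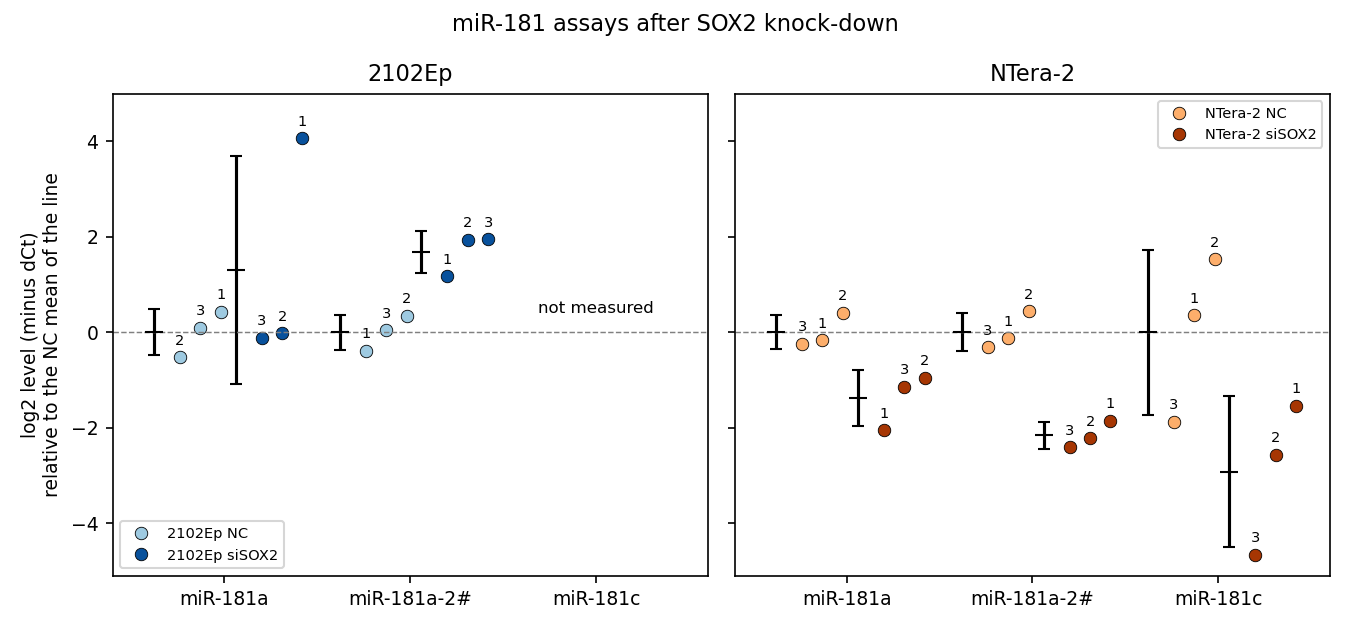
Log2 level (minus dCt) of the 3 miR-181 assays relative to the NC mean of the line (dashed line at 0), in 2102Ep (left) and NTera-2 cells (right). Points are samples with their replicate number, ordered by value within a group, and bars are mean ± SD (n = 3). miR-181a-2# separates the arms upwards by 1.68 in 2102Ep and downwards by 2.16 in NTera-2, while the mean of miR-181a in 2102Ep siSOX2 rests on replicate 1.

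The line-by-line counts stand beside those of all assays. Of all assays, 4.63% were called higher in 2102Ep cells and 3.77% were called lower in NTera-2 cells at an adjusted p under 0.05 (limma, Benjamini-Hochberg over all assays). Given as a description and not as a test of the family, miR-181a-2# was the 1 miR-181 assay among these 20 and 17. With the replicate number as a block, 4 assays in place of 17 were called lower in NTera-2 cells. Arms that did not overlap were found in 31.9% of all assays in 2102Ep and in 29.0% in NTera-2 cells, against 1 of 2 miR-181 assays in 2102Ep and 2 of 3 in NTera-2. Nothing is read from these counts, because knock-down values chose the family.

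The opposite movement of miR-181a-2# amounted to a difference between the knock-down changes (NTera-2 minus 2102Ep) of -3.84, with a standard error of 0.44. It was the third lowest of the 385 assays with values for both lines. The corresponding value of miR-181a was -2.69 with a standard error of 1.32, and -1.31 without 2102Ep siSOX2 replicate 1. Without that sample the major strand differed by -0.07 in 2102Ep and by -1.38 in NTera-2 cells.

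The choice of reference changed the size of these differences more than their direction. For miR-181a-2# in 2102Ep cells, where the card B constant is not built on named reference RNAs, the rise was 1.65 against the mean Ct of the card, 1.77 against its median and 2.24 against RNU44 and RNU48. Where it was traced, that constant itself lay near the card median, so the median reference nearly repeats it. The RNU reference also moved the median of all assays in this line from 0.00 to 0.43. In NTera-2 cells the fall was between -1.66 (card mean) and -2.15 (U6) under the other references. There the median over all assays was -0.27 on the deposited dCt, 0.06 against the card mean and -0.31 against RNU44 and RNU48. These medians pool both cards, and the shift was not the same on each. From dCt to the card mean, miR-181a-2# on card B moved from -2.16 to -1.66. On card A miR-181a moved less, from -1.38 to -1.16. miR-181a differed between the arms by 1.34 to 1.66 in 2102Ep and by -1.56 to -1.16 in NTera-2 cells under the same alternatives, and miR-181c by -3.10 to -2.69. None of these references turned a direction.

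**Figure D3:**
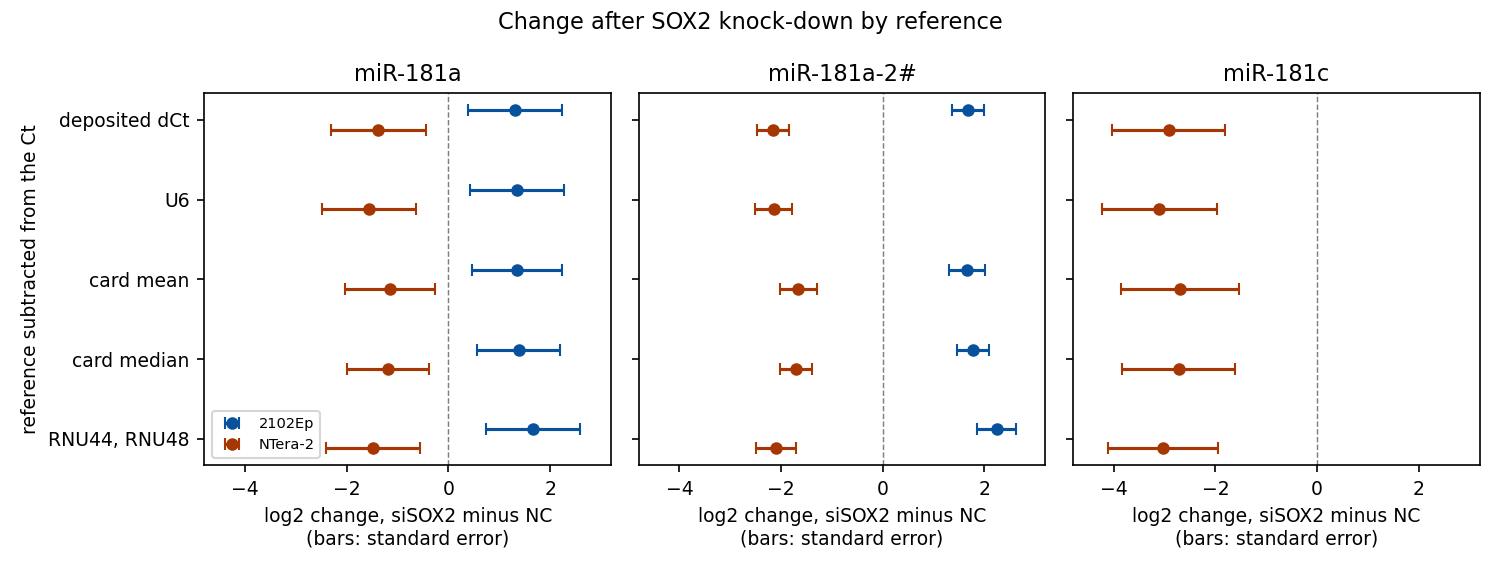
Log2 change (siSOX2 minus NC, x axis) of each miR-181 assay under the deposited dCt and other references subtracted from the Ct (y axis), with standard errors as bars. Blue marks 2102Ep and brown NTera-2 cells. All points of 2102Ep lie right of 0 and all of NTera-2 left of it. U6 of card B was not used in 2102Ep cells.

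The assays miR-181a-2# and miR-181a were next set beside other minor and major strands paired by name, of which 2102Ep gave 52 and NTera-2 gave 58. Since the miR-181a assay also reads MIR181A1, a gap between the strands is not a reading of the MIR181A2 hairpin alone. In NTera-2 cells the minor strand changed by -0.78 more than miR-181a. The median of the other pairs was -0.01 with quartiles of -0.36 and 0.21, and 7 of the 58 had a wider gap in either direction. Major and minor strands can lie on different cards, and the gap moved with the reference. It was -0.50 against the card mean, where the median of the other pairs was 0.25 and 15 had a wider gap, and -0.61 against RNU44 and RNU48, where 12 did. In 2102Ep cells the minor strand exceeded the major by 0.38, and 36 of 52 other pairs had a wider gap, against 40 with a gap of 0.31 on the card mean and 26 with a gap of 0.58 on RNU44 and RNU48. Without 2102Ep siSOX2 replicate 1 this gap was 2.01, and 2 of 51 other pairs had a wider one. The strands of a pair changed with the same sign in 32 of 52 other pairs in 2102Ep and in 41 of 58 in NTera-2 cells.

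**Figure D4:**
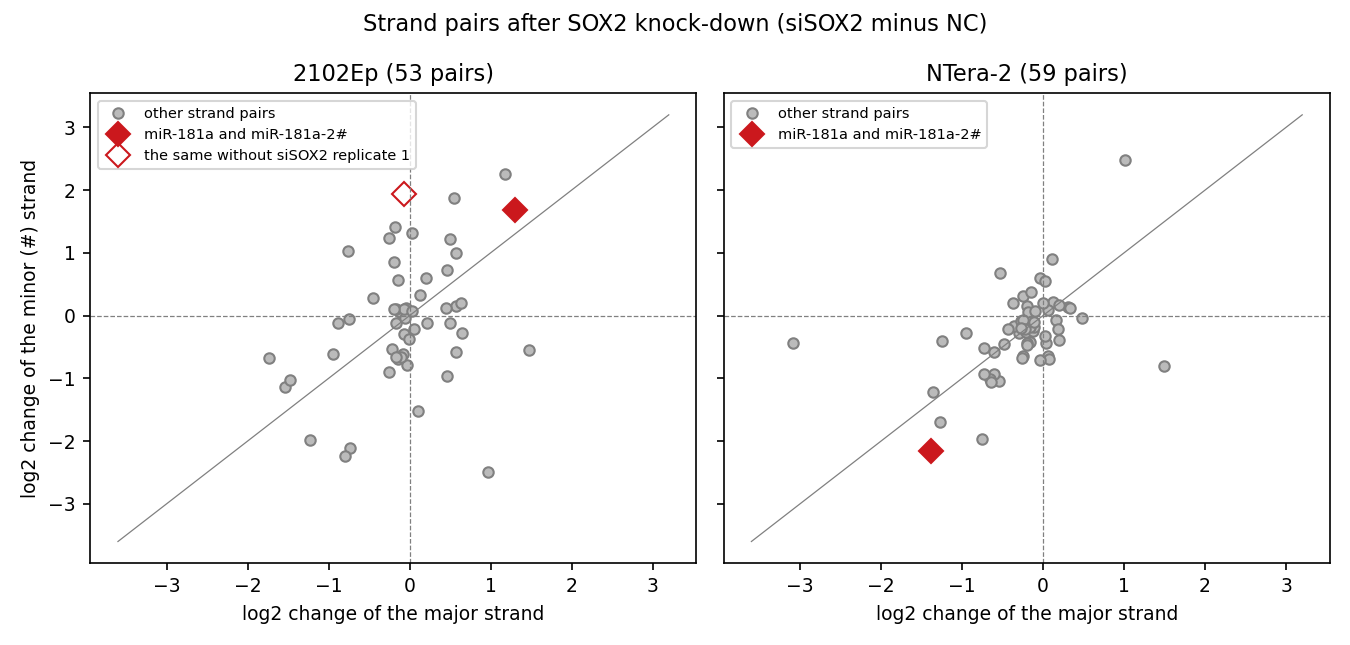
Log2 change after SOX2 knock-down of the minor (#) strand (y axis) against that of the major strand paired with it by name (x axis), in 2102Ep (left) and NTera-2 cells (right). Grey points are other pairs, the filled red diamond is the miR-181a pair and the open diamond is that pair without 2102Ep siSOX2 replicate 1. The solid line marks equal changes. The filled diamond lies at 1.31 and 1.68 in 2102Ep and at -1.38 and -2.16 in NTera-2.

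Levels in the 2 lines were compared on raw Ct relative to the sample's mean over the card, since the dCt constants differ between lines. In the 6 NC samples, miR-181a-2# lay at -2.65, -2.06 and -2.34 in 2102Ep and at 0.19, 0.99 and -0.03 in NTera-2 cells, in log2 units from the card mean. It was higher in NTera-2 by 2.73, or 6.64-fold, with a standard error of 0.34. miR-181a lay at -2.40, -3.01 and -2.62 in 2102Ep and at -2.14, -1.68 and -2.40 in NTera-2. Its difference was 0.61, with a standard error of 0.29. Both differences are a description with no test, because the NC samples enter the knock-down values that chose the family.

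The comparison of the lines over both arms sums the arms where the knock-down changes subtract them. On a shared scale its errors are uncorrelated with theirs where all groups have the same spread. The knock-down changes above were, however, fitted on minus dCt and this comparison on the card mean scale. Whether the errors are uncorrelated across these scales was not tested. The SDs of miR-181a-2# on the card mean scale were 0.30 to 0.54. It was 1.11 higher in NTera-2, with a standard error of 0.25 and an adjusted p of 0.0019 (limma). This value averages line gaps of 2.76 in NC and -0.54 after siSOX2, so it describes neither arm alone. For miR-181a the SDs were unequal, at 0.31 in 2102Ep NC and 2.33 in 2102Ep siSOX2, so its difference of -0.66 (standard error 0.63) is a description, and it was 0.0166 without 2102Ep siSOX2 replicate 1. Of all assays, 72.5% passed the threshold between the lines in NC and 83.9% over both arms, so that passing it sets miR-181a-2# apart from few other assays. Against RNU44 and RNU48 the difference of miR-181a-2# was 0.42 in NC and -1.75 over both arms (adjusted p = 0.00012), and that of miR-181a was -0.93 in NC and -2.50 over both arms. That reference moved the median of all assays from 0.17 to -1.68 in NC and from 0.12 to -2.02 over both arms. Relative to those shifts both strands lay above the median in NC under either reference. Over both arms, however, which line holds more miR-181a-2# depends on the reference, and the adjusted p does not measure that dependence. In NC its difference of 0.42 against RNU44 and RNU48 had a standard error of 0.33.

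On the card mean scale the order of the groups for miR-181a-2# was NTera-2 NC (0.38 ± 0.54, SD, n = 3), 2102Ep siSOX2 (-0.73 ± 0.51), NTera-2 siSOX2 (-1.28 ± 0.39) and 2102Ep NC (-2.38 ± 0.30). The siSOX2 samples of the lines overlapped with each other, with -1.32 to -0.43 for 2102Ep and -1.72 to -0.99 for NTera-2. The NC samples of NTera-2 lay above and those of 2102Ep below both, without overlap. On this scale, whose card mean is taken over the assays measured in all 12 samples, the lines differed by 2.76 in NC and by -0.54 after siSOX2, given as a description.

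For miR-181a the order was 2102Ep siSOX2 (-1.37 ± 2.33, SD, n = 3), NTera-2 NC (-2.12 ± 0.37), 2102Ep NC (-2.71 ± 0.31) and NTera-2 siSOX2 (-3.27 ± 0.46). Each group overlapped its neighbour in this order, and the first place rests on replicate 1 of 2102Ep siSOX2 at 1.32. The other samples of that group lay within the range of 2102Ep NC. The order between lines changed with the reference, as given above.

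**Figure D5:**
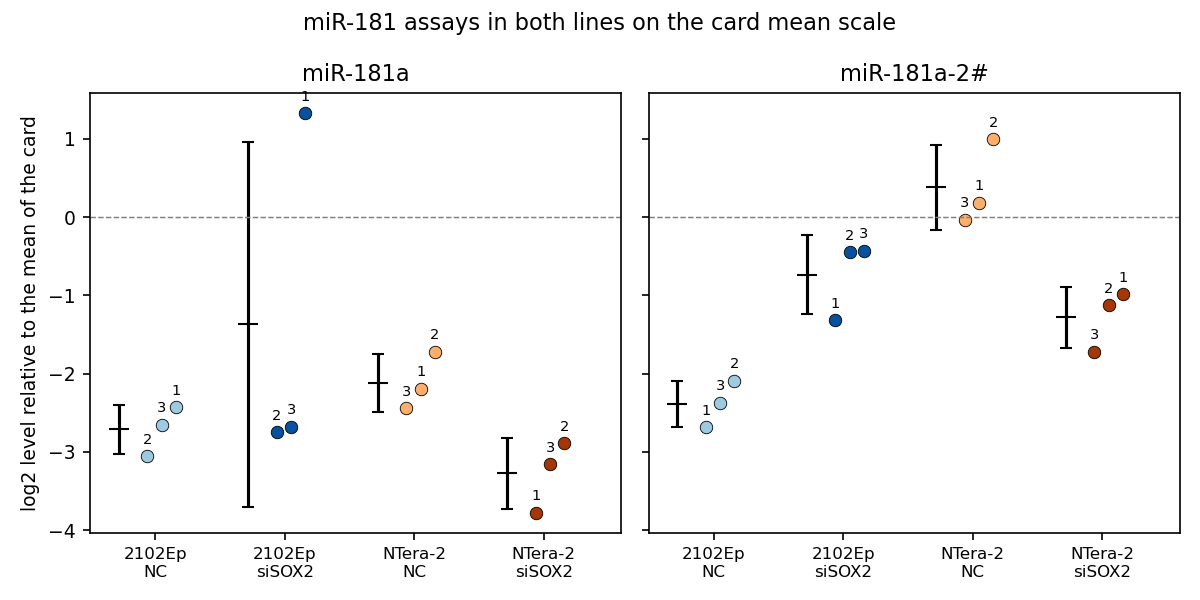
Log2 level relative to the mean of the card (dashed line at 0) of miR-181a and miR-181a-2# in the 4 groups. Points are samples with their replicate number, ordered by value within a group, and bars are mean ± SD (n = 3). For miR-181a-2# the means of the NC groups are 2.76 apart while the siSOX2 groups overlap.

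The assays most like each strand were looked up by Pearson correlation of minus dCt over the 12 samples, among 370 assays with a value in all of them. For miR-181a they were miR-32 (r = 0.933), miR-197 (r = 0.930) and miR-99b (r = 0.926). For miR-181a-2# they were miR-545 (r = 0.990), miR-320B (r = 0.987) and miR-505# (r = 0.987). These points share the offset of the dCt between the lines. Relative to the card mean the leading assays were miR-197 (r = 0.623), miR-101 (r = 0.608) and miR-577 (r = 0.565) for miR-181a and miR-320B (r = 0.830), miR-326 (r = 0.793) and miR-301b (r = 0.786) for miR-181a-2#. The assays miR-181a and miR-181a-2# correlated with each other by 0.887 on minus dCt and by 0.111 relative to the card mean. The miR-181a reading can also hold strands from MIR181A1.

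The mir-181a-2 precursor is on the study's list of precursors with a SOX2 binding site near their start, a list taken from SOX2 chromatin data of embryonic stem cells and not from these samples. The 71 precursors matched 60 assays by name besides miR-181a and miR-181a-2#. The match dropped the locus number, arm and strand mark, so strands from other loci of a listed miRNA can be among them. Assays under another name, such as mmu-miR-124a, were missed. The shares below are therefore approximate for strands of precursors with a site. In 2102Ep cells 2 of 55 tested list assays were higher and 5 were lower past the adjusted threshold, or 12.7% against 14.1% of all assays, with a median change of 0.10 against 0.00. In NTera-2 cells 0 of 58 were higher and 5 were lower past that threshold, or 8.62% against 5.54%, with a median of -0.20 against -0.27. The fitted change, passing or not, lay below 0 in 23 of the 55 and in 39 of the 58. The count in NTera-2 cells was 1 with the replicate block.

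Among the list assays that passed, mmu-miR-96 fell by 3.00, miR-766 fell by 2.32 and miR-183 fell by 1.54 in 2102Ep cells. miR-96 and miR-183 belong to a cluster known from sensory organs. So does miR-182, which also passed and fell by 1.06, so these lower calls come from 1 locus and are not separate sites. miR-9#, the minor strand of a neural miRNA, rose by 2.26 in 2102Ep cells (adjusted p = 0.00027). In NTera-2 cells miR-1251 fell by 2.98 and miR-577 fell by 1.73. The rise of miR-181a-2# in 2102Ep and its fall in NTera-2 cells thus stand beside list assays that passed in either direction in 2102Ep and as lower in NTera-2.

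Of a list of miRNAs known from neurons, where miR-181a also acts, 4 of the 12 tested in 2102Ep passed, as did 4 of the 11 tested in NTera-2 cells, or 33.3% and 36.4% against 14.1% and 5.54% of all assays. The list was drawn up with earlier results of these data known, so these shares are a description and no enrichment is read from them. The list's median change was -0.36 against 0.00 in 2102Ep and 0.12 against -0.27 in NTera-2 cells. miR-138 rose in both lines, by 1.45 (adjusted p = 0.0044) and 1.26 (adjusted p = 0.025). miR-184 fell by 0.74 in 2102Ep and rose by 1.25 in NTera-2, and miR-218 fell by 0.73 and rose by 0.77, the reverse of the pattern of miR-181a-2#. miR-9#, which is on both lists, rose in 2102Ep cells as given above, and dme-miR-7, also on both, fell by 1.18 in NTera-2 cells. In NTera-2 cells 1 of the 11 passed with the replicate block and 0 against RNU44 and RNU48.

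Of miRNAs known from blood cells, where miR-181a is also well known, 0 of the 5 tested in 2102Ep passed, and 0 of the 7 tested in NTera-2 cells (limma). Of all assays 14.1% and 5.54% passed, and with lists this short nothing is read from the absence of calls. Unadjusted p-values of 0.05 or less numbered 0 and 1, and the unequal-variance test called 0 in both lines. The median change was -0.12 in 2102Ep and -0.14 in NTera-2 cells, against -0.0025 and -0.27 over all assays.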

How the data were processed

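TaqMan array card A and B data of 12 samples were used. The deposited raw Ct and dCt are log2-like values, and the authors made dCt with DataAssist 3.0 by subtracting 1 constant per sample and card. A deposited fold change and p-value table was not used. From row 106 on, raw values of 2102Ep siSOX2 replicate 3 were displaced by 1 place (337 of 339 were found 1 place earlier) and were replaced by the sum of dCt and constant. Where both arms of a line had 2 or more dCt values, an assay entered a limma 3.58.1 fit of the 4 group means (R 4.3.3, lmFit, eBayes, two-sided tests). P-values were adjusted over all assays by Benjamini-Hochberg, with a threshold of 0.05. Lines were compared on raw Ct relative to the card mean of each sample. Code was tested on simulated data.

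The members, lists and tests were chosen with earlier results of these data known. Named assays were the miR-181 assays, up to 6 per list past the threshold by size, and the 3 most alike by correlation. miR-182 was added as a member of the cluster of miR-96 and miR-183. Same-numbered NC and siSOX2 samples had residuals that correlated by 0.118, 0.265 and 0.160 in NTera-2 cells. In 2102Ep cells they correlated by 0.158, 0.169 and 0.0640. These values are low, but in both lines each lay above every value between different numbers. Those ranged from -0.178 to 0.054 in NTera-2 and from -0.216 to 0.036 in 2102Ep cells. Whether the numbers mark pairs is not settled, and the main fit did not use them, so a pairing would be ignored in it. Alternatives were other references, limits on raw Ct, complete assays, other variance models, a replicate block and each sample left out. Pre-amplified PCR gives no molecule counts, and precision is limited by 3 samples a group.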

Additional observations from a re-analysis of the deposited data

Results flagged for a closer look

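hsa-miR-181a-2# was picked out because every siSOX2 sample lay above the NC mean in 2102Ep cells and below it in NTera-2 cells. The knock-down change in NTera-2 minus that in 2102Ep was -3.84 on the log2 scale. The difference was not tested, because the family was chosen on these values.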

How the results depend on the processing

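The knock-down change of miR-181a-2# kept its sign under all alternatives, 22 in 2102Ep and 23 in NTera-2 cells. In size it moved beyond the replicate SD against RNU44 and RNU48 in 2102Ep (2.24) and against the card mean (-1.66) and median (-1.71) in NTera-2, and the difference between lines was -3.31 against the card mean and -4.33 against RNU44 and RNU48. With 1 sample left out it ranged from 1.49 to 1.94 in 2102Ep, from -2.32 to -1.94 in NTera-2 and from -4.10 to -3.62 for the difference between lines. For miR-181a the change in 2102Ep ranged from -0.0723 to 2.02 with 1 sample left out, negative without siSOX2 replicate 1, and the difference between lines from -3.40 to -1.31. Its fall in NTera-2 ranged from -1.60 to -1.05 and that of miR-181c from -3.86 to -2.05.

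The line differences depended on the reference. In NC, miR-181a gave -3.05 on the deposited dCt, 1.09 against the card median, -0.93 against RNU44 and RNU48 and -3.59 against U6, and miR-181a-2# gave -5.60 on the dCt and 0.42 against RNU44 and RNU48. Over both arms, miR-181a gave -4.39 on the dCt, -2.50 against RNU44 and RNU48 and -5.04 against U6, and miR-181a-2# gave -7.52 on the dCt and -1.75 against RNU44 and RNU48. The dCt constants differ between the lines by construction, and the cause of the other shifts was not tested. With 1 sample left out the NC differences ranged from 0.41 to 0.77 and from 2.43 to 2.94, and those over both arms from -1.002 to 0.0166 (the highest without 2102Ep siSOX2 replicate 1) and from 0.96 to 1.22.

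There were 61 calls in 2102Ep and 25 in NTera-2. The unequal-variance test gave 8 and 3, and leaving 1 sample out gave 37 to 66 and 10 to 25 (39 without NC replicate 1, 37 without NC replicate 3 and 40 without siSOX2 replicate 1 in 2102Ep, and 10 without NC replicate 3, 15 without siSOX2 replicate 1 and 14 without siSOX2 replicate 2 in NTera-2). In NTera-2 the 6 samples alone gave 11, RNU44 and RNU48 13, the card mean 15, the card median 16 and the replicate block 7. The block left the fitted differences of the miR-181 assays between arms as they were. The SOX2-site count in NTera-2 fell from 5 to 1 with the card mean, 2 with RNU44 and RNU48, 1 with the block and 1 with the unequal-variance test, which gave 0 in 2102Ep. The neural counts, 4 in each line, were 2 and 0 against RNU44 and RNU48 and 0 and 0 with the unequal-variance test, and 1 with the block in NTera-2. That test for the lists, the strand gap without 2102Ep siSOX2 replicate 1 and the card mean scale for likeness were chosen after seeing the data. For miR-181a-2# in 2102Ep cells U6 was not run, as its value on card B was not used there. Weak assays limit precision: miR-181c lay at Ct 27.1 to 33.5.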
